A study of Mus musculus with 583 samples.

Results

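MARS-seq cells made up 65 of the 583 single cells of the series, taken as every cell whose column carried the MARS-seq name, 29 in replicate library A and 36 in replicate library B. All cells were of J1, an established mouse embryonic stem cell line, kept naive in 2i/LIF, a medium with LIF and with blockers of the MEK and GSK3 kinases. No treatment differed between libraries. The study profiled these cells with 6 single-cell methods in 12 libraries, a replicate A and a replicate B for each method, and the labels do not say whether A and B came from separate cultures, plates or days. In MARS-seq, as in CEL-seq2, SCRB-seq and Drop-seq, a transcript's 3' end receives a unique molecular identifier (UMI), so that a UMI stands for a captured molecule. Smart-seq / C1 and Smart-seq2 were counted without UMIs. Below, a share is a percentage of a cell's UMIs from mouse genes, with the added ERCC spike-in RNAs left out.

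Mitochondria carry a small circular genome that encodes protein subunits of respiratory complexes I, III, IV and V together with the rRNAs and tRNAs needed to translate them. All other subunits, and the proteins of the mitochondrial ribosome, are encoded in the nucleus. Pieces of the mitochondrial genome have also been copied into nuclear chromosomes during evolution, and reads from a mitochondrial transcript can match such nuclear copies. The share of mitochondrial RNA is widely used as a measure of a cell's state or quality in single-cell data.

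The cells carried the profile of their label. The 7 stem cell markers Pou5f1, Sox2, Nanog, Zfp42, Esrrb, Klf4 and Dppa5a together had 50, 95 and 171 UMIs in the lowest, median and highest cell of A and 85, 145 and 241 in B. Of 8 fibroblast markers, 4 (Col3a1, Lum, Dcn and Postn) had no UMI in either library, and Vim, which many cell types express, held 252 of the 255 UMIs of that list in A and 442 of 454 in B. Of 5 primitive endoderm markers, Gata4, Gata6, Sox7 and Sox17 had no UMI and Pdgfra had 1 in B. A count of 0 over both libraries allows up to 0.000185% of UMIs. Depth was 14101, 22804 and 35486 mouse UMIs in the lowest, median and highest cell of A, and 17272, 25636.5 and 47147 in B. Thinned to 10000 UMIs, the cells showed a median of 3057 genes in A and 3152 in B. 19 of the 46 distinct cell barcodes occurred in both libraries, and 1 or 2 of a library's barcodes also occurred in CEL-seq2 or SCRB-seq libraries. All 65 cells were kept.

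The share of mitochondrial RNA differed between the libraries. In A it was 0.881% of mouse UMIs in the lowest cell, 5.91% in the median cell and 13.8% in the highest. In B it was 0.245%, 0.782% and 13.2%. The ratio of the medians was 7.57, and all 29 cells of A lay above the median of B. The ranges overlapped: 4 cells of A, between 0.881% and 1.49%, lay among the cells of B, and 1 cell of B, at 13.2%, lay near the top of A. The next cell of B had 2.91%, and without the highest cell the median of B was 0.749%. With 1 library on each side this difference has no replicate check and no test was made. At least 5% mitochondrial RNA was found in 17 of 29 cells of A (58.6%, exact 95% interval 38.9 to 76.5%) and in 1 of 36 cells of B (2.78%, 0.0703 to 14.5%), intervals that cover counting error only.

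**Figure D1:**
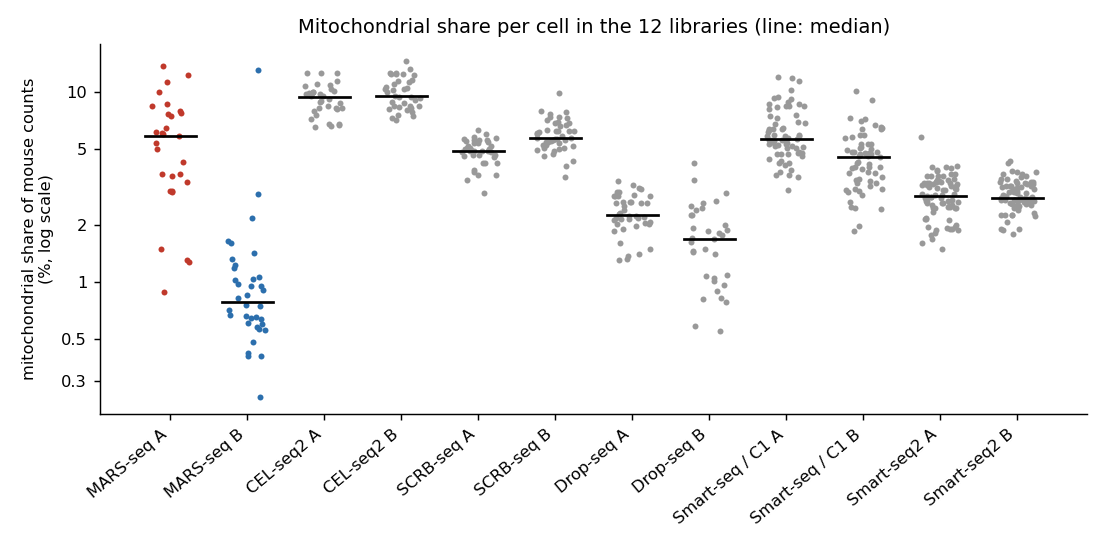
Each point is a cell and each line a library's median, with the mitochondrial share of mouse counts on a log axis in percent and the 12 libraries along the horizontal axis. MARS-seq A runs from 0.881% to 13.8% and MARS-seq B from 0.245% to 2.91% apart from 1 cell at 13.2%, while both libraries of each other method lie close to each other.

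The share also spread more widely from cell to cell within each MARS-seq library than within the other libraries. Its standard deviation over cells on the log2 scale was 1.02 in A and 0.98 in B, or 0.73 in B without its highest cell, against 0.24 to 0.72 in the other 10 libraries. The highest cell of A had 15.7 times the share of the lowest. Library B spanned 53.8-fold, or 11.9-fold without its highest cell. In the other libraries this ratio ran from 1.94 to 7.67, the last in Drop-seq B, whose spread of 0.72 was nearly that of B without the cell. The plot of the share by library shows the wide column of A beside the narrow columns of CEL-seq2 and SCRB-seq. Libraries A and B of each other method differed less in their median share, from 9.40% and 9.59% in CEL-seq2 to 2.25% and 1.68% in Drop-seq. As a group the MARS-seq libraries did not stand apart in level: the mean of their 2 medians was 3.35% ± 3.63 (SD, n = 2) against 4.95% over the 10 other libraries (exact two-sided permutation p = 0.485, Benjamini-Hochberg adjusted over 6 measures 0.727, the smallest p possible being 0.0152).

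The added spike-in RNAs give a second scale, since each cell should have received a like amount. Per spike-in UMI, A held 0.735 mitochondrial UMIs and B 0.213, a ratio of 3.45, or 4.50 without the highest cell of B (0.163). UMIs of all other mouse genes went the other way, with 11.6 per spike-in UMI in A and 17.0 in B, a ratio of 1.46 in favour of B. The A-to-B ratio of medians was thus smaller per spike-in UMI, at 4.83, than as a share. Whether the spike-in amounts were the same in both libraries was not tested.

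Within a library the share was only weakly related to depth. Over the 29 cells of A its Spearman correlation was 0.254 with the cell's mouse UMIs, -0.091 with its spike-in UMIs and -0.253 with the genes seen at 10000 UMIs. Over the 36 cells of B these were 0.034, 0.249 and -0.146. The cells of a library share its preparation and sequencing, so these values describe the libraries and carry no p. Among the 19 barcodes found in both libraries, the share in A and the share in B had a Spearman correlation of -0.386.

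The highest cell of B, with barcode ATAGCG, held 26.8% of all mitochondrial UMIs of its library. It had 24020 mouse UMIs and, with 2511, the most spike-in UMIs of its library. For Npm1, a nucleolar histone chaperone, it had 80 UMIs where the other cells of B had 2, 8 and 68 in the lowest, median and highest, and those of A 13, 55 and 106. Prdx1, a peroxidase, had 23 UMIs there against 0 to 12 in the other cells of B and 1 to 25 in A. Rps4x, a ribosomal protein, had 22 against 0 to 21 in the other cells of B and 1 to 20 in A. Scaled to the mouse UMIs of each cell, Rps4x was higher in another cell of B. Other genes that differed between the libraries were at the level of B in this cell: Rangrf had 33 UMIs against 0 to 4 in A and 1 to 54 in B, and Gm14056 had 15 against 0 to 6 in A and 5 to 30 in B. Gm4891 had no UMI there, while every cell of A had at least 2. Over 3206 genes its median correlation with single cells of A was 0.554 and with those of B 0.551, between pairs within A (0.556) or within B (0.561) and pairs across (0.512). The genes named for this cell were not chosen by a rule fixed beforehand. Among them, Npm1 and Prdx1 lay within the range of A and above the other cells of B. Rangrf, Gm14056 and Gm4891 lay within the range of the other cells of B and outside that of A.

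The 13 protein genes and 2 rRNA genes of the mitochondrial genome were then taken in turn. The rRNAs made up most of the mitochondrial UMIs, 68.8% in A and 73.2% in B (73.8% without the high cell). mt-Rnr2, the large-subunit rRNA (GRCm38 chrM:1094-2675, plus strand), had 22582 UMIs in A and 7810 in B, and mt-Rnr1, the small-subunit rRNA (chrM:70-1024), 4725 and 827. Scaled to the UMIs outside the mitochondrial genome, mt-Rnr2 was 4.34-fold higher in A (95% counting interval 4.23 to 4.46) and mt-Rnr1 8.58-fold (7.97 to 9.25). Without the highest cell of B these were 5.65-fold and 13.7-fold. Per 10000 UMIs, mt-Rnr1 ran from 4.82 over 65.2 to 180 in the cells of A and from 0.540 over 4.99 to 134 in B, so that only the highest cell of B stood among the upper cells of A.

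Complex I genes, whose products take electrons from NADH, were all higher in A but not equally so. mt-Nd1 (chrM:2751-3707) had 2709 UMIs in A and 475 in B, of which 253 came from the 1 high cell, and its fold rose from 8.57 (7.77 to 9.46) to 17.9 (15.6 to 20.6) without that cell. mt-Nd4 had 2710 and 898 UMIs and a 4.53-fold difference, 5.92-fold without the cell. The remaining complex I genes with enough UMIs lay between 3.18-fold for mt-Nd4l, with 460 and 217 UMIs, and 6.42-fold for mt-Nd2, with 680 and 159 (3.59-fold and 8.92-fold without the cell). mt-Nd5 was 4.68-fold and mt-Nd6, the only protein gene encoded on the other strand, 5.11-fold higher in A, or 5.81-fold and 5.83-fold without the cell. mt-Cytb, the complex III subunit, differed 8.03-fold (1947 and 364 UMIs) and mt-Co1, the catalytic subunit of complex IV, 6.01-fold (2616 and 654), and without the cell these were 12.999-fold and 7.29-fold. The counting intervals of mt-Nd1 and mt-Nd4l did not overlap, so genes of this genome differed in fold by more than counting error.

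**Figure D2:**
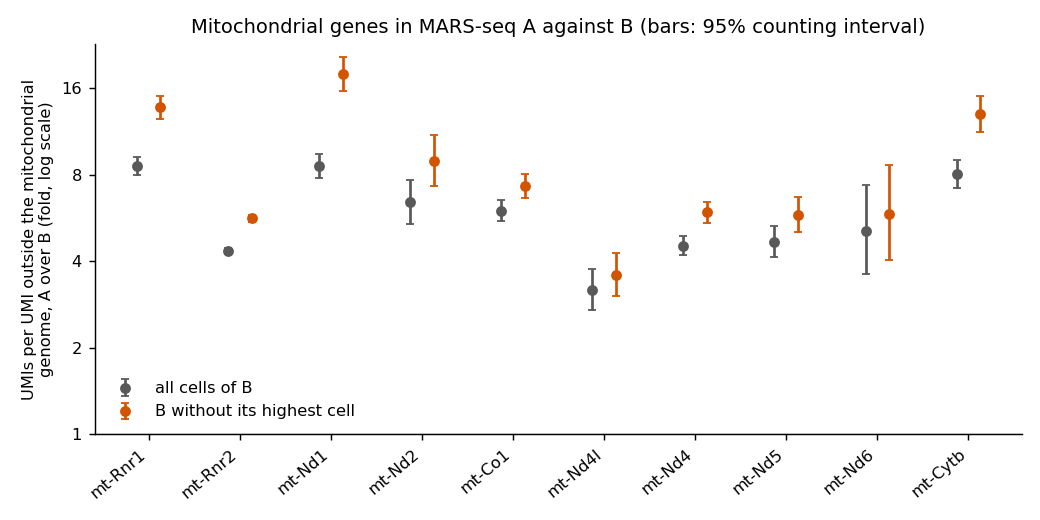
Points give the ratio of A to B in UMIs per UMI outside the mitochondrial genome, on a log axis, for the 10 mitochondrial protein and rRNA genes with at least 100 UMIs over both libraries, bars the 95% counting interval, grey all cells of B and orange B without its highest cell. The lowest ratio is 3.18, for mt-Nd4l, and mt-Nd1, mt-Rnr1 and mt-Cytb move most when the cell is left out.

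The other 5 protein genes gave almost no UMIs. mt-Co2, mt-Co3, mt-Atp6 and mt-Atp8 had none, and mt-Nd3 had 4 in A and 3 in B. For the first 4 of these genes 100% of their 31-base words also occur elsewhere in the GRCm38 genome, and for mt-Nd3 99.1%. How reads that match several places were treated is not given in the sources used here. mt-Nd4l, also at 100%, had 677 UMIs over both libraries. Why the other genes gave so few UMIs was not tested.

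Nuclear genes that hold mitochondrial sequence moved with the mitochondrial genes. In all, 12 nuclear genes with a UMI aligned to the mitochondrial genome over at least 60 bases, and together they held 0.860% of mouse UMIs in A and 0.182% in B (0.142% without the high cell). Gm20594 (chr6:79817916-79818364, annotated as protein coding) aligned to mt-Rnr2 with 88.4% identity over 439 bases, Gm13340 (chr2:22588103-22589647, an unprocessed pseudogene) to mt-Co1 with 97.6% over 1545 bases, and Gm11410 (chr4:80003989-80005131, a processed pseudogene) to mt-Cytb with 92.9% over 1142 bases. The following 3 pairs are shown because they let the likeness be read directly. Each is a window of 60 bases, 5′ to 3′ on the mitochondrial gene's strand in GRCm38 from RefSeq, and capitals mark the bases at which the copy and the mitochondrial genome differ.

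Gm20594, chr6:79818288-79818347, plus strand: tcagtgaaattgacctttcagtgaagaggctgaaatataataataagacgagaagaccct
mt-Rnr2, chrM:2107-2166, plus strand: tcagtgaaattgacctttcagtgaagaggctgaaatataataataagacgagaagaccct
Gm13340, chr2:22588103-22588162, minus strand: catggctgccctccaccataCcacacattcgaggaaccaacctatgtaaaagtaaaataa
mt-Co1, chrM:6813-6872, plus strand: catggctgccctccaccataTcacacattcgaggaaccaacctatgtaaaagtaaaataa
Gm11410, chr4:80005072-80005131, plus strand: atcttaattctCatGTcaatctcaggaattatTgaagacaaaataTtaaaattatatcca
mt-Cytb, chrM:15228-15287, plus strand: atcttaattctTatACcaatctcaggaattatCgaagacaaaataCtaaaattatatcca

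The windows hold 0, 1 and 5 mismatches, and the longest identical runs between the genes were 65, 148 and 47 bases. The counts of these genes kept to the same order as those of their mitochondrial partners. Gm20594 had 3075 UMIs in A and 1169 in B, of which 240 came from the high cell, a 3.95-fold difference (3.69 to 4.23) beside 4.34-fold for mt-Rnr2. Gm13340 had 1389 and 271, 7.70-fold (6.75 to 8.80), beside 6.01-fold for mt-Co1. Gm11410 had 574 and 100, 8.62-fold (6.96 to 10.8), beside 8.03-fold for mt-Cytb. Without the high cell, which held 45 of the 100 UMIs of Gm11410 in B, the folds of the copies were 4.86, 9.86 and 15.3, beside 5.65 for mt-Rnr2, 7.29 for mt-Co1 and 12.999 for mt-Cytb. From cell to cell the summed share of the 12 genes had a Spearman correlation with the mitochondrial share of 0.960 in A and 0.936 in B, or 0.931 in B without the high cell. Whether any of these UMIs came from transcripts of the nuclear copies was not tested.

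Beside these copies, the genes that followed the mitochondrial share most closely in A had low correlations with it in B. Among 1412 genes with a mean of at least 1 UMI in thinned cells of both libraries, the 5 highest Spearman correlations in A were those of Gm20594 (0.894, and 0.841 in B), Gm13340 (0.866 and 0.587), Gm11410 (0.791 and 0.302), Minos1 (0.737 and 0.120) and ENSMUSG00000063427 (0.599 and -0.022). Minos1 encodes a subunit of the complex that shapes the folds of the inner mitochondrial membrane. The lowest in A were Sae1, a subunit of the SUMO-activating enzyme (-0.594, and -0.067 in B), Rpl4 (-0.562 and -0.348), Hmga1b (-0.540 and -0.022), Cad, an enzyme of pyrimidine synthesis, and Tmem258 (both -0.521). In B, Pcna, the replication clamp (0.484, and 0.122 in A), Rps7 (0.471 and 0.125) and Rpl21 (0.468 and -0.159) came after Gm20594 and Gm13340, and the stress granule protein gene G3bp2 (-0.502 and -0.130), Med28, Mdh1, Ube2c and Snrpa were lowest. Over all 1412 genes, the correlations in A and those in B were themselves correlated at 0.107.

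Nuclear genes of the respiratory complexes were then compared with the mitochondrial share. The median Spearman correlation with the mitochondrial share was 0.049 in A and 0.063 in B for 30 nuclear genes of complex I, 0.199 and -0.015 for 3 of complex II, 0.103 and -0.051 for 8 of complex III, 0.011 and 0.121 for 11 of complex IV, and -0.059 and -0.072 for 13 of complex V, beside -0.004 and -0.018 over all genes. For 32 genes of mitochondrial ribosomal proteins it was -0.022 and -0.002. The summed G2/M and mitosis genes were lower in cells with more mitochondrial RNA, at -0.290 in A and -0.479 in B (-0.464 without the high cell). The 22 naive and core pluripotency genes had medians of -0.037 and -0.025.

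**Figure D3:**
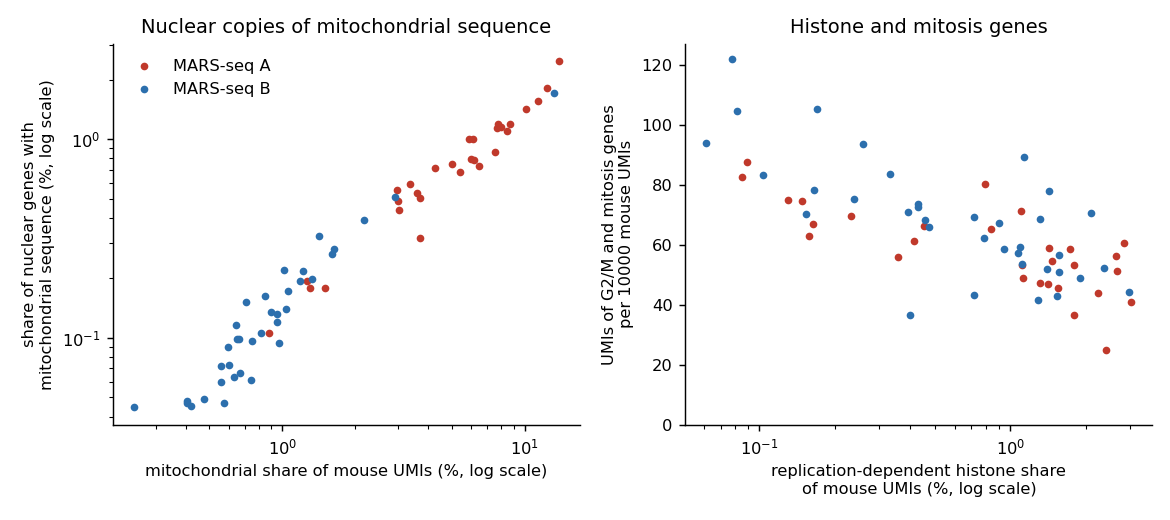
Each point is a MARS-seq cell, red for A and blue for B. The left panel sets the share of nuclear genes with mitochondrial sequence against the mitochondrial share, both in percent on log axes, and all cells lie along 1 band that runs through both libraries; the right panel sets UMIs of G2/M and mitosis genes per 10000 mouse UMIs against the histone share in percent on a log axis, and falls in both libraries.

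Library A and library B also differed in genes outside the mitochondrial genome. Of 2677 genes with at least 100 UMIs over both libraries, 266 (9.94%) differed more than 2-fold after scaling to the UMIs outside the mitochondrial genome, 152 (5.68%) higher in A and 114 (4.26%) higher in B. With 1 library a side these are sizes and not tests. Annotated pseudogenes were 154 of the 256 such genes outside the mitochondrial genome, or 31.8% of the 484 pseudogenes measured, while 92 of 2121 protein-coding genes (4.34%) passed 2-fold. Genes that share at least 10% of their 31-base words with other genes passed in 179 of 1151 cases (15.6%), and genes that share none in 22 of 604 (3.64%). The nuclear genes of complexes I to V stayed within 2-fold in all 71 cases, from -0.84 to 0.55 on the log2 scale, as did all 60 genes of mitochondrial ribosomal proteins. Among cytosolic ribosomal protein genes 11 of 84 passed, among pluripotency genes 1 of 29 and among histone genes 3 of 17.

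The largest folds outside the mitochondrial genome included both protein-coding genes and pseudogenes. Cyp26b1, which breaks down retinoic acid, had 146 UMIs in A and none in B, at least 73.1-fold from a floor of 3 UMIs, yet it was seen in 15 of the 29 cells of A and 31 UMIs came from 1 cell. Slc22a15, a membrane transporter, had 433 UMIs in A, 91 in 1 cell, and 1 in B, a ratio of 650 with a counting interval of 116 to 25748. Ank3, which encodes ankyrin-G, was even by comparison: every cell of A had 3 to 14 UMIs, 244 in all, and B had 2 UMIs in all, a ratio of 183 (50.2 to 1522). Gm7212 (206 and 2 UMIs), Gm6498 (329 and 10), Gm6322 (99 and 4), Gm4891 (390 and 20), Gm17430 (100 and 8), Gm12058 (121 and 10) and Gpd1l (92 and 8) completed the 10 highest in A.

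In the other direction, Gm14033 had 4 to 20 UMIs in every cell of B, 367 in all, and none in A, at least 81.4-fold higher in B. Rangrf, a factor of the Ran nuclear transport system, had 1 to 54 UMIs in the cells of B, 660 in all, and 30 in A, 14.6-fold (10.2 to 21.9), although all of its 31-base words also occur in other genes. 1700025G04Rik had 320 UMIs in B and 5 in A, and B230369F24Rik 167 and 5. Gm8513, Gm11336, Gm16297, Gm5335, Gm5529 and Gm16061 had 112 to 267 UMIs in B and 4 to 12 in A. Npm1, a well-expressed protein-coding gene, was 4.69-fold higher in A (4.25 to 5.19), with 1634 and 523 UMIs. Of its 31-base words, 45.5% also occur in other genes. Npm1 was singled out after its values were seen.

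Variation of single genes from cell to cell was measured next. All cells were thinned to 10000 mouse counts, and for each gene and library the squared coefficient of variation was set against that of genes of the same mean level, so that a residual of 1 on the log2 scale means a factor of 2 in variation above what is usual at that level. The mean residual of the MARS-seq libraries was tested against 0 with limma, in a fit over all 12 libraries. Of 2644 genes, 29 (1.1%) passed at an adjusted p below 0.05, 23 (0.87%) more variable and 6 (0.227%) less. At an unadjusted p below 0.05 there were 377 such genes. Leaving out MARS-seq B gave 77 calls, Drop-seq A 66 and Drop-seq B 70.

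Mitochondrial transcripts led the genes of high variation. mt-Rnr2 had a mean residual of 3.98 ± 0.518 (SE, limma adjusted p = 8.07e-06), with 2.64 in A and 5.32 in B. This SE comes from limma's fit over all 12 libraries and is not the spread between A and B. mt-Rnr1 stood at 3.83, mt-Nd1 at 3.54, mt-Cytb at 3.05, mt-Nd4 at 2.63 and mt-Co1 at 2.47, so that 4 of 7 tested protein genes and both rRNA genes passed. In every one of these 6 genes the residual was larger in B, the library with the 1 high cell. Without that cell the mean residuals were 2.51 for mt-Rnr2, 1.83 for mt-Rnr1, 2.00 for mt-Co1 and 1.48 for mt-Cytb, which still passed. mt-Nd1 (1.32, limma adjusted p = 0.0740) and mt-Nd4 (0.86, 0.364) no longer did. Of the 68 nuclear genes of complexes I to V that were tested none passed with limma, and 10 had an unadjusted p below 0.05.

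Malat1 is a nuclear long noncoding RNA, and Mt2 a metallothionein that binds zinc and copper. Among the tested genes that passed, these were the most variable outside the mitochondrial genome. Genes with a mean below 0.2 counts in any library were not tested. Malat1 ran from 0 over 7.19 to 58.1 UMIs per 10000 in the cells of A and from 2.08 over 9.16 to 69.8 in B. Its residual was 2.53 in A and 3.30 in B (mean 2.92, limma adjusted p = 0.000289). Mt2 ran from 3.17 over 24.4 to 98.6 in A and from 1.33 over 16.6 to 75.2 in B, with residuals of 2.58 and 2.60 (mean 2.59, limma adjusted p = 0.00128). Both were variable to a like degree in each library.

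For some other genes of the list 1 cell held much of the count. Akap1, which anchors protein kinase A to the outer mitochondrial membrane, had a residual of 0.63 in A and 4.04 in B, where 1 cell held 77 of its 158 UMIs. Exosc9, a subunit of the RNA exosome, had 2.41 in A and 0.62 in B, and 1 cell held 16 of the 34 UMIs of A. Lgals1, which encodes galectin-1, had 21 of its 53 UMIs of A in 1 cell. Npm1 was variable in B (2.36) and not in A (0.13), and without the high cell of B its mean residual was 0.81 (limma adjusted p = 0.0995). Mrpl46 of the mitochondrial ribosome (1.52), Eif2ak1, the heme-regulated kinase of eIF2α (1.49), and Ehd1 of endocytic recycling (1.14, with 1.23 in A and 1.06 in B) completed the 15 most variable genes. Without library A, Mrpl46, Exosc9 (0.60), Eif2ak1 (0.98), Lgals1 (0.79) and Ehd1 (1.06) no longer passed, and without library B, mt-Nd4 (1.87), Akap1 (0.62) and Npm1 (0.12) did not. Akap1 (1.91), Eif2ak1 (0.91) and Ehd1 (0.84) also did not pass without thinning, nor without the mitochondrial genes (1.11, 0.67 and 0.68). Npm1 did not pass without CEL-seq2 A (1.24) or B (1.25), nor Akap1 without Drop-seq B (2.33) or with a mean of at least 0.5 (2.32).

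Among the 6 genes of low variation, Naca, a subunit of the complex that meets nascent polypeptides at the ribosome, had the lowest residual, -1.05 (limma adjusted p = 0.0154). It ran only from 6.08 over 11.8 to 16.6 UMIs per 10000 in A and from 4.38 over 12.3 to 18.8 in B. The others were the splicing factor Puf60 (-1.02), Anapc15 of the anaphase-promoting complex (-0.97), Fasn, the fatty acid synthase (-0.92), Tomm20, a receptor for protein import into mitochondria (-0.92), and Mrfap1 (-0.92).

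The lists of stem cell state and cell cycle are to be read against the 29 of 2644 genes (1.1%) that passed overall and the 377 with an unadjusted p below 0.05, shares at which lists of this size hold few or no calls. Of 29 naive and core pluripotency genes tested none passed with limma, with 1 at an unadjusted p below 0.05, and the median residual was 0.04. Of 48 G2/M and mitosis genes none passed either, with 8 at an unadjusted p below 0.05. Of 37 genes of G1/S and DNA replication 1 passed, as more variable, and 6 had an unadjusted p below 0.05. Of 60 cytosolic ribosomal protein genes none passed, while 28 had an unadjusted p below 0.05 and their median residual was -0.39, beside 0.00 over all genes tested.

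Libraries A and B ranked the genes differently in variation. Over 2644 genes the residuals of A and B had a Spearman correlation of 0.130, a value across genes, which are not independent replicates. Among the 50 most variable genes of each library 10 were shared, namely Mt2, Malat1, Trh, the thyrotropin-releasing hormone gene, and 7 genes of the mitochondrial genome. Leaving the mitochondrial genes out before thinning gave 23 calls, of which 6 were among the 29.

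**Figure D4:**
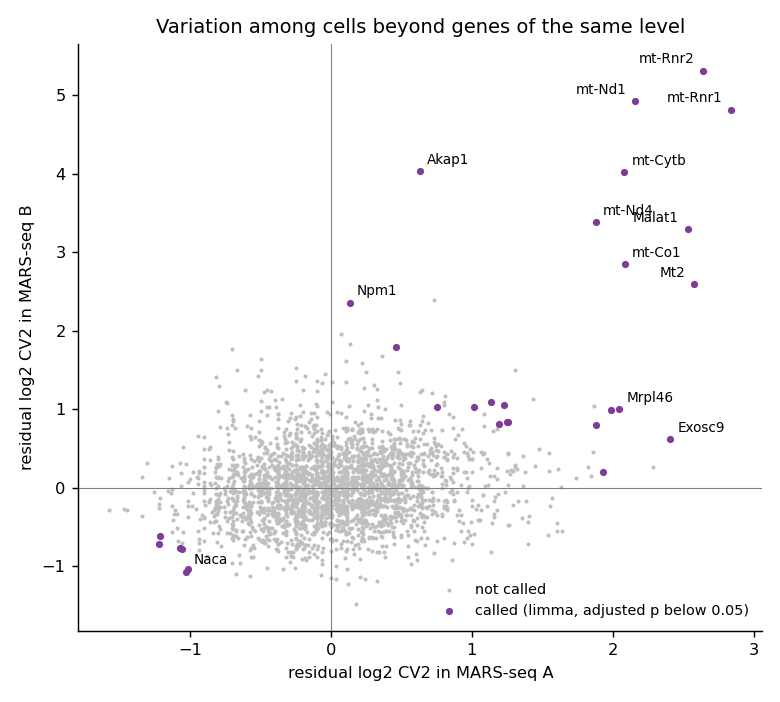
Each point is 1 of 2644 genes, with its residual log2 squared coefficient of variation in MARS-seq A on the horizontal and in MARS-seq B on the vertical axis, and purple points are the 29 that passed limma's test. Malat1 and Mt2 lie high in both libraries, mt-Rnr2 at 2.64 and 5.32 lies higher in B, and Akap1 and Npm1 are high in B alone.

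Against the other UMI methods 14 of 2644 genes (0.53%) passed limma's test for a difference in variation, all of them more variable in MARS-seq, and 301 had an unadjusted p below 0.05. mt-Nd1 had a difference of 3.18 ± 0.541 (SE; limma adjusted p = 0.00269), mt-Rnr2 of 2.92 (0.0143), mt-Cytb of 2.75 (0.00300) and mt-Co1 of 2.07 (0.0175). Mrpl46, Eif2ak1, Npm1, Rps4x, Lgals1, Ehd1, Rnf187, Msto1, Prdx1 and Dnpep made up the rest, between 1.21 and 1.75. When the 1 high cell of B was left out, 2 genes passed. mt-Nd1 (0.96), mt-Rnr2 (1.45), mt-Cytb (1.18) and mt-Co1 (1.61) were not among them. Leaving out either CEL-seq2 library gave 3 genes. Leaving out SCRB-seq A gave 5, its replicate B 7 and Smart-seq2 A 9. Leaving out MARS-seq A gave 22, MARS-seq B 29, and each Drop-seq library 20 (A) or 22 (B).

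Covariation was described over pairs of 1367 genes with a mean of at least 1 UMI per thinned cell in both libraries, 933661 pairs in all, as Spearman correlations over the 29 cells of A and the 36 of B. All cells of a library share its preparation. The median over pairs was 0.007 in A and 0.006 in B, and the 95th percentile 0.321 and 0.289. In both libraries 2711 pairs (0.290%) lay above that percentile, and of the 1000 highest pairs of A the median in B was 0.041. Sem1 with Arf1 (0.772 in A, -0.155 in B) and Atp5c1 with Rpl4 (-0.054 and 0.721) were high in 1 library only, and were chosen as examples after their values were seen.

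Mitochondrial protein genes varied together in A and less so in B. Over 21 pairs of 7 genes the mean correlation was 0.763 in A and 0.268 in B, or 0.201 in B without the high cell. The value of B was 0.433 as a Pearson correlation of log2 counts and 0.377 without thinning, beside 0.787 and 0.779 in A. In the other 10 libraries the Spearman mean lay between 0.077 and 0.555. In A all 21 pairs were above the 95th percentile, from 0.576 for mt-Nd2 with mt-Co1 to 0.884 for mt-Nd4 with mt-Cytb. In B 11 of the 21 were, and mt-Nd4 with mt-Cytb had 0.326. The lower level in B also means fewer UMIs per thinned cell, with a mean of 5.25 for mt-Nd1 against 41.2 in A, and the part of depth in this difference was not tested. The highest pair of all in A was mt-Rnr2 with Gm20594, its nuclear copy printed above, at 0.953, and 0.857 in B. mt-Rnr1 with Gm20594 (0.906 in A, 0.389 in B) and mt-Cytb with Gm11410 (0.895 and 0.441) were also among the first 5 of A.

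Replication-dependent histone genes, which are expressed in S phase to package new DNA, formed the other group that varied together, and they did so in both libraries. Over 45 pairs of 10 genes the mean correlation was 0.540 in A and 0.526 in B (0.542 without the high cell). In the other libraries it was -0.007 to 0.229. In both A and B 38 pairs were above the 95th percentile. Histone genes took 0.00718% to 0.392% of mouse counts in the median cell of the other libraries, against 1.13% and 0.752% here. There 6 to 10 of the genes entered, and the part of the lower counts in this difference was not tested. Hist1h2ao with Hist1h2ap reached 0.943 in A and 0.920 in B, and Hist1h2ao with Hist2h2ac 0.898 and 0.907. Hist1h2ap with Hist2h2ac (0.816 and 0.825) was also among the first 5 pairs of B, where the chaperone gene Hsp90aa1 with the pseudogene Gm12346 (0.669 and 0.784) was the only one outside the histone and mitochondrial genes. Many histone genes share sequence, so that reads of one can be counted for another. The part of shared sequence in these correlations was not tested. Hist1h1d and Hist1h1b are linker histones that share 3.62% and 3.93% of their 31-base words with other genes. Their pair had 0.611 in A and 0.612 in B. Hist1h1a, with 0.281% shared, had 0.612 and 0.368 with Hist1h1b and 0.450 and 0.287 with Hist1h1d.

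Histone share and mitotic genes ran against each other from cell to cell. The histone share ran from 0.0852% over 1.13% to 3.03% of mouse UMIs in the cells of A and from 0.0615% over 0.752% to 2.96% in B, so that the libraries overlapped over nearly the whole range. Its Spearman correlation with the summed G2/M and mitosis genes was -0.770 in A and -0.683 in B (-0.686 without the high cell). With the mitochondrial share it was 0.286 and 0.259 (0.250 without the high cell), and 12 of 12 histone genes in A and 10 of 12 in B had a correlation with that share above 0, beside 701 and 653 of all 1412 genes. The G2/M genes themselves had a mean pair correlation of 0.059 in A and 0.032 in B. Naive and core pluripotency genes had 0.012 and 0.020, and cytosolic ribosomal protein genes 0.070 and 0.086. Glycolysis and hypoxia genes had 0.155 and 0.163, and the metallothioneins Mt1 and Mt2 had 0.587 and 0.700 with each other.

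**Figure D5:**
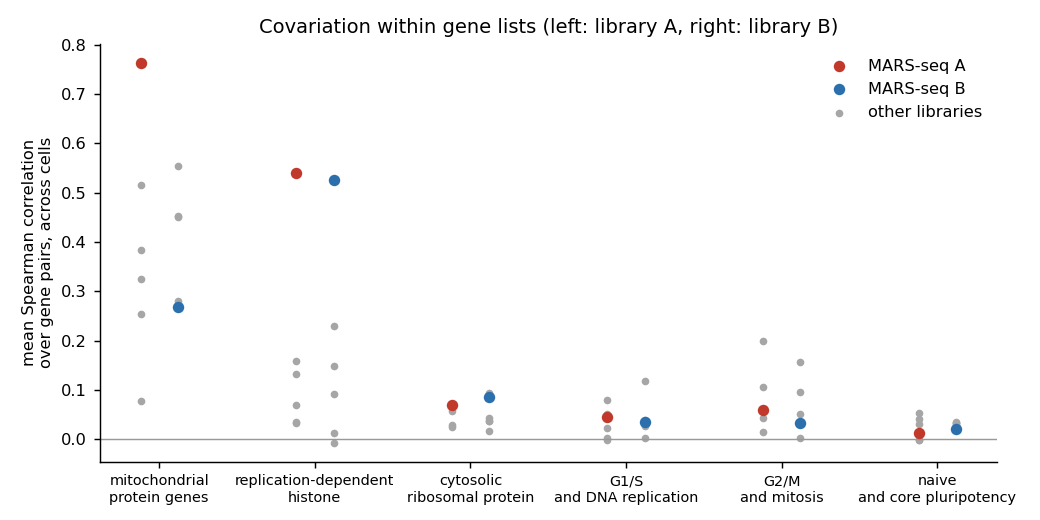
Each point is the mean Spearman correlation over the gene pairs of a list across the cells of 1 library, red for MARS-seq A, blue for MARS-seq B and grey for the other 10 libraries. Histone genes lie at 0.540 and 0.526 in MARS-seq, above all grey points, and mitochondrial protein genes at 0.763 in A and 0.268 in B.

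Expression in MARS-seq was set against the mean of CEL-seq2, SCRB-seq and Drop-seq, to see which levels are particular to this method's libraries, by edgeR's quasi-likelihood test on library sums. Of 14293 genes 2240 (15.7%) passed at an adjusted p below 0.05, 1345 (9.41%) higher in MARS-seq and 895 (6.26%) lower. Without MARS-seq A 945 passed and without MARS-seq B 925. Levels are given as CPM, counts scaled to a common library size on scaled library sizes, mean ± SD over libraries, and a fold change is a log2 difference of MARS-seq minus the mean of the 3 methods.

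Of the mitochondrial protein and rRNA genes, mt-Nd3 was lower in MARS-seq, and the other 8 protein genes tested and both rRNAs did not pass. Of 14 mitochondrial tRNA genes tested 1 fell, mt-Tm (-3.00, edgeR adjusted p = 0.0444), with 3 UMIs in A and 0 in B. mt-Rnr2 had 40443 CPM in A, 9195 in B and 16425 ± 8212 in the 6 other libraries (log2 0.73 ± 0.409 SE, edgeR adjusted p = 0.254). mt-Rnr1 had 0.35 (adjusted p = 0.828), mt-Co1 1.08 (0.253), mt-Nd1 -0.98 (0.272), mt-Cytb -1.21 (0.183) and mt-Nd4 -0.75 (0.217). mt-Nd3 had 7.16 and 3.53 CPM in A and B against 83.3 to 3168 in the other UMI libraries (-6.62, edgeR adjusted p = 7.33e-07). Against all 5 other methods, in which the Smart-seq libraries list it at 0, mt-Nd3 did not pass (-0.48). These calls turned on which MARS-seq library was used: without A, mt-Nd1 (-3.26), mt-Cytb (-3.41) and mt-Nd4 (-2.24) were lower and passed, and without B, mt-Co1 (1.81) was higher and passed. With no filter on low counts mt-Nd4 passed as well (-0.82, edgeR adjusted p = 0.0315). The nuclear copy Gm20594 stood at 5507 and 1376 CPM against 28.9 ± 22.1 (7.23, edgeR adjusted p = 4.18e-08). Its UMIs were thus at a level in MARS-seq that no other library showed.

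Nuclear genes of the respiratory complexes were called higher more often than lower, while 9.41% of all genes tested rose and 6.26% fell. Of 37 complex I genes 18 rose and 2 fell, with a median log2 difference of 0.74 beside -0.05 over all genes tested, and Ndufs5 rose from 18.3 ± 13.5 to 110 ± 21.2 CPM (3.35, edgeR adjusted p = 1.55e-05). Of 4 complex II genes 3 rose, Sdhd by 1.39. Of 9 complex III genes 1 rose and 1 fell, the latter Uqcrb, from 311 ± 61.6 to 25.9 ± 21.6 CPM (-3.65). Of 11 complex IV genes 3 rose, with Cox7c at 1829 ± 334 against 212 ± 135 CPM (3.54), and of 14 complex V genes 6 rose, Atp5l by 3.97. Of 76 genes of mitochondrial ribosomal proteins 17 rose.

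Histone and cytosolic ribosomal protein genes were called higher in MARS-seq more often than all genes tested, of which 9.41% rose. Of 45 histone genes tested 25 rose and the other 20 did not pass, with a median log2 difference of 2.86. Hist2h2ac had 467 ± 72.1 CPM against 32.5 ± 27.3 (4.40, edgeR adjusted p = 4.18e-08). Of 89 cytosolic ribosomal protein genes 64 rose and 2 fell, with a median of 1.31, and Rps7 had 1323 ± 300 CPM against 176 ± 128 (3.60). Hist2h2ac and Rps7 share 64.1% and 64.3% of their 31-base words with other genes. Ribosomal protein genes took 12.6% of UMIs in the median cell of A and 13.4% in that of B, above all 10 other libraries, which ran from 1.87% to 9.17% (exact two-sided permutation p = 0.0152, the smallest the 66 splits allow, adjusted over 6 measures 0.0909). Where the 2 libraries of a method are kept together, the smallest p is 0.167.

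Among the naive and core pluripotency genes 8 of 37 rose and 4 fell. Over all genes tested 9.41% rose and 6.26% fell, the shares against which the list counts given here are to be read. Pou5f1, which encodes Oct4, had 639 CPM in both A and B against 243 ± 152 (1.60, edgeR adjusted p = 0.000219). Klf4 rose by 1.69 (0.00169), to 295 ± 67.5 from 98.4 ± 49.6 CPM, but did not pass without MARS-seq B (1.37). Sox2 fell by 1.80 (adjusted p = 0.000811), to 174 ± 16.8 from 685 ± 354 CPM. Spp1, osteopontin, rose by 2.07. Nanog (0.43, adjusted p = 0.245), Esrrb (0.56, 0.192) and Zfp42 (0.80, 0.0945) did not pass, although Zfp42 did when CEL-seq2 B (1.10) or either Smart-seq / C1 library was left out. Of 58 G2/M and mitosis genes 6 rose and 10 fell, and of 44 genes of G1/S and DNA replication 2 rose and 3 fell.

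Single genes with the largest differences were Me3, Gm20594, Hist1h2af, Rps12l1 and Gm23493 on the high side. Me3, the mitochondrial malic enzyme, had 69.8 CPM in A and 768 in B against 1.52 ± 3.15 in the other UMI libraries (10.49, edgeR adjusted p = 0.0124), so that its level came mostly from B, with 652 of its 691 UMIs, and it did not pass without CEL-seq2 B or with no filter on low counts (edgeR adjusted p = 0.0757). Hist1h2af differed between the libraries in the other sense, with 690 UMIs in A and 66 in B. On the low side, AY074887 had no UMI in MARS-seq, at least 39.0-fold lower from a floor of 3 UMIs over both libraries. It did not pass without Smart-seq / C1 B, with the 8 UMI libraries alone (edgeR adjusted p = 0.0637) or against all 5 other methods (0.0699). Gm11464 had none either, at least 49.1-fold lower, and Dqx1 and Gm26710 had 2 and 1 UMIs.

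Gm42418, a long noncoding RNA gene on chromosome 17 (GRCm38 chr17:39846958-39848788) that overlaps the RefSeq gene Rn18s-rs5, took a large part of every MARS-seq cell. It held 3.59%, 10.5% and 19.9% of mouse UMIs in the lowest, median and highest cell of A and 5.71%, 11.7% and 23.8% in B. In SCRB-seq it held 5.96% and 8.22% of all UMIs, in Drop-seq 0.105% and 0.204%, and in CEL-seq2 0.0463% and 0.0445%. Against the mean of those methods it was higher by 5.17 on the log2 scale (edgeR adjusted p = 0.00389). Single cells of SCRB-seq B reached 17.1%, within the range of MARS-seq cells. Counted without UMIs, Gm42418 held 0.310% in A and 5.94% in B of Smart-seq2, and 0.409% and 0.0794% in Smart-seq / C1. Its Spearman correlation with the mitochondrial share was -0.374 in A and 0.151 in B.

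MARS-seq cells showed fewer genes at equal depth than most others. At 10000 counts the library medians averaged 3104.5 ± 67.2 (SD, n = 2) against 3619.7 over the other 10, of which Smart-seq / C1 B, at 3091, lay between A (3057) and B (3152) and all others above both (exact two-sided permutation p = 0.0303, adjusted over 6 measures 0.0909). The variation beyond counting error, as the median over 517 genes, was 0.250 in A and 0.175 in B and 0.112 on average elsewhere (exact two-sided permutation p = 0.106, adjusted 0.212). Within MARS-seq a cell's mouse UMIs and its spike-in UMIs ran against each other, with a Spearman correlation of -0.878 over the 29 cells of A and -0.735 over the 36 of B.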

How the data were processed

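Expression was measured in 583 single J1 cells in 12 libraries, 65 of them by MARS-seq. The authors deposited a table of counts per gene and cell, UMI counts for CEL-seq2, SCRB-seq, Drop-seq and MARS-seq and read counts for Smart-seq / C1 and Smart-seq2, with 38924 mouse genes and 92 ERCC spike-ins. Per the submitters' processing notes reads were aligned with STAR 2.4.0 to mm10. The treatment of reads that match several places is not given in the sources used here, and it bears on all pseudogenes and nuclear copies. Every column had a sample. All cells were kept, and doublets were not called.

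Gene names came from the GENCODE M21 annotation of GRCm38, which held 37607 of the identifiers. Sums per library were tested with edgeR 4.0.16 (quasi-likelihood, TMM, filterByExpr), residual variation (loess span 0.5, mean of at least 0.2 in every library) with limma 3.58.1, and library values with exact permutation tests. DESeq2 1.42.0 served as an alternative. Cells were thinned to 10000 mouse counts with a fixed seed. MARS-seq A and B are 1 library each and were compared by values and counting intervals only. The labels name no separate cultures, so a p-value reflects only how far these libraries vary, which can be technical variation. Nuclear copies were found with blastn 2.17.0+ over at least 60 aligned bases. On simulated counts the expression fit recovered 94 of 100 genes changed 4-fold and 34 of 100 changed 2-fold, with 5 false calls among 13269 genes. The variation fit recovered 112 of 177 genes within MARS-seq and 105 of 177 in the comparison with the other UMI methods, each with 10 false calls among 2373 genes. The simulated library sums spread less than the real ones, whose common biological coefficient of variation was 0.418, and held no other method difference. The simulated rise in variation was alike in MARS-seq A and B. These rates are therefore not those of the real data. Intervals and floors (3 counts) cover counting error only.

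The members, gene lists and tests were chosen with earlier results of these data known. Genes were named by rule: the 5 largest rises and falls in expression among genes with a mean log2 CPM of at least 5 whose libraries did not overlap, the 15 most variable genes within MARS-seq, all 13 protein and 2 rRNA genes of the mitochondrial genome, the 10 largest folds each way between A and B among genes with at least 100 UMIs, the 5 highest pairs of each library, the 5 genes highest and lowest with the mitochondrial share in each, for each list described the 2 of smallest p and the 1 of highest level, and 6 core pluripotency genes. Alternatives were other scalings, tests, filters, depths and comparisons, leaving out each library, and the replicate letter as a block.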

Additional observations from a re-analysis of the deposited data

How the results depend on the processing

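The A-to-B ratio of median mitochondrial shares, 7.57, kept its direction throughout. It was 8.89 with the 13 protein genes only, 8.71 without rRNA genes, 4.83 per spike-in UMI, 7.34 as a share of all counts, 4.81 from summed counts, 8.02 over barcodes found in both libraries and 7.90 without the highest cell of B, a setting added after seeing the data. Genes past 2-fold between A and B numbered 118 of 1321 with a minimum of 200 UMIs and 167 of 1576 over barcodes in both libraries. The count of genes that differed in expression was 3821 against all 5 other methods and 925 to 2829 when 1 library was left out, the lowest values being those without a MARS-seq library. Genes of unusual variation within MARS-seq numbered 17 at a depth of 5000 counts, 54 without thinning and 21 to 77 when 1 library was left out, where leaving out MARS-seq B gave 77 and leaving out Drop-seq A or B gave 66 or 70. The comparison of variation with the other UMI methods gave 3 at 5000 counts, 1 without the genes of the mitochondrial genome, 2 without the highest cell of B and 3 to 29 when 1 library was left out. Without thinning, the mean pair correlation of G2/M genes was 0.0905 in A and 0.0652 in B.

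In the library values, genes per cell had an adjusted exact permutation p of 0.0455 at 5000 counts. When 1 library was left out, adjusted p ran from 0.0545 to 0.545 for genes per cell and for the ribosomal protein share, from 0.145 to 0.955 for extra-Poisson variation and from 0.618 to 1 for the SD of log2 total counts. It ran from 0.545 to 0.955 for the mitochondrial share, whose difference turned in sign without MARS-seq B (0.955), and from 0.618 to 1 for the spike-in share, which turned without MARS-seq A (1). In expression the log2 differences of mt-Rnr1, mt-Rnr2 and mt-Co1 turned to -1.91, -0.71 and -0.73 without MARS-seq A, and were highest, at 1.15, 1.37 and 1.81, without MARS-seq B. The cause of these differences was not tested.

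With the replicate letter as a block, 2063 genes differed in expression, 28 were of unusual variation within MARS-seq and 16 differed in variation from the other UMI methods, and mt-Rnr1 stood at -0.11. Deviations of same-lettered libraries correlated between -0.168 and 0.132 across methods. Whether libraries of the same letter shared a culture or a day is not given and was not tested. Depth limits the protein genes of the mitochondrial genome in B, of which 8 had at least 42 UMIs over its 36 cells.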

Other observations

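Some genes of lists for other cell types were expressed. In the fibroblast list Fn1 had 343 ± 36.4 CPM (SD, n = 2) and Vim 486 ± 48.8, and Vim was higher than in the other UMI methods (log2 2.33, edgeR adjusted p = 0.000854) while Fn1 did not pass (-0.19, 0.690). In the primitive endoderm list Sparc had 190 ± 53.9 CPM and did not pass (-0.15, 0.821), and Lama1, a laminin chain, had 35.5 ± 4.68 and was higher (2.85, edgeR adjusted p = 0.00695). Tfap2c of the trophectoderm list had 39.4 CPM and Tubb3 of the neural list 29.9, and neither passed. Eomes, a mesendoderm and trophoblast factor, had 7 UMIs in 5 cells of B and none in A, and Pax6, a neural factor, had 4 UMIs in 4 cells of A and 1 in B. The barcode of the highest cell of B also occurred in A, where that cell had 44 UMIs of Npm1, 62 of Gm20594 and none of Rangrf, against 80, 240 and 33 in B. Of the remaining nuclear genes with mitochondrial sequence, Gm11407 had 234 UMIs in A and 71 in B, Gm13339 232 and 40, and Gm4076 85 and 18, while Nudt14 went the other way with 4 and 21.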
